A study of Mus musculus with 12 samples.

Results

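Antiviral interferon-stimulated genes were described across LPS-activated mouse B cells with and without DNA damage. The 37 genes were picked by name from the 29486 genes of the deposited expression table, as effectors of the interferon response other than interferon regulatory factors, Gbp and Irg GTPases, nucleic acid sensors and MHC genes. Eif2ak2, which senses double-stranded RNA, and Dhx58, a relative of RIG-I, were kept in the list. All 37 had a row of their own and all 37 passed the filter on low values, which asked for 10 normalized counts or more in 4 or more libraries and kept 15579 genes. The rule used names only and no measured value.

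The mRNAseq data came from splenic B cells of C57BL/6Babr mice, purified with a B cell isolation kit and cultured with 10 μg/ml LPS in every condition, so no unstimulated cells are among the controls. There were 3 conditions with 4 libraries each. The first received LPS for 48 h, the second LPS for 48 h and then 20 μM etoposide for 4 h, and the third LPS for 47 h, 10 μM KU55933 for 1 h and then 20 μM etoposide for 4 h. Etoposide is a topoisomerase II poison that leaves DNA double-strand breaks, and KU55933 inhibits ATM, the kinase that signals them. The labels do not give how long the LPS cultures ran beyond 48 h, no cells received KU55933 without etoposide, and each condition had its own Illumina indexes. A difference due to etoposide and one due to further time in culture or to the index therefore cannot be told apart. The labels give no age or sex of the mice, and the study's methods give an age range in weeks but no sex. The study calls the 4 libraries of a condition biological replicates, and whether these were separate animals is not stated.

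The 12 columns of the table summed to between 20400994 and 30575195 counts. Divided by 1 factor per library, the 4 columns of a condition held the same value in each row, to within 1.4e-14 in log2 units. The values are thus the mean fitted for a condition, and they hold no spread between replicates. Each gene had 1 value per condition here, no difference could be set against replicate error, and no p-value is given. Differences are given as log2 differences of the normalized count plus 1. A gene is called higher or lower when it differed by at least 1.5-fold, and the share of all 15579 genes with the same call is given with each comparison. The intervals given are 95% counting intervals from the summed counts of 4 libraries, which cover counting error only and are narrower than any interval that includes replicate error.

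Of 10 B cell markers, all 10 passed the filter, and their summed normalized count was 238294 under LPS, 141868 under etoposide and 151899 when KU55933 preceded etoposide. T cell markers were near 0, with none of 6 above 10 in any condition and a summed count from 9.02 to 9.78. The same held for NK cell markers, with a sum of at most 2.83 over 3 genes, and of 4 neutrophil markers only Csf3r passed the filter, with a sum over the 4 from 12.7 to 14.6. Red blood cell genes summed to 217, 134 and 99.7 in the 3 conditions.

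Interferons are secreted when a cell senses infection, and type I interferons act through the receptor chains Ifnar1 and Ifnar2, the kinases Jak1 and Tyk2 and a complex that holds Stat2 and Irf9. That complex binds the interferon-stimulated response element, a short sequence near the start of many of the genes described here. LPS, through its receptor TLR4, can itself induce type I interferon. The products of these genes bind or degrade viral RNA, block entry and budding, slow translation, and modify proteins with ISG15.

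RefSeq promoter windows of GRCm38.p6, from 250 bases before to 50 bases after each start site, were found for 28 of the 37 genes. The letters GAAA, any 2 bases and GAAA again, the core of a response element, were searched on both strands. They stood in a window of 12 of these 28 genes (42.9%) and of 3.99% of all 27025 genes with a window. TTCNNNGAA, a palindrome of the kind STAT factors bind, stood in windows of 7 of the 28 (25%), against 9.55% of all genes, and 4 members held both. A match is a stretch of letters and not a site shown to be bound, and in overlapping matches the letters are counted in each. Stretches of 7 windows are shown. Ifit1, Ifit3 and Rsad2 were among the genes with the widest differences with KU55933, Oas3 and Stat2 were lower by over 2-fold with etoposide, Isg15 held the most matches of those shown, and Ifitm3 differed in the opposite direction. Capitals mark each match and the sequence is that of the gene's strand.
Ifit1, chr19:34640765-34640833, plus strand: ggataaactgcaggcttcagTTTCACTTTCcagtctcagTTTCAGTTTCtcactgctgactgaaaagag
Ifit3, chr19:34583353-34583436, plus strand: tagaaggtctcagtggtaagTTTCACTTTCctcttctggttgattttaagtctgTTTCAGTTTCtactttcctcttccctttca
Rsad2, chr12:26456543-26456592, minus strand: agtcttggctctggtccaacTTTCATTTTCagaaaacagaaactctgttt
Isg15, chr4:156200855-156200916, minus strand: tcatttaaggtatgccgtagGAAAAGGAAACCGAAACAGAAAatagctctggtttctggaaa
Oas3, chr5:120777705-120777754, minus strand: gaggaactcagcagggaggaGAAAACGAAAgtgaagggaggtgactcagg
Stat2, chr10:128270256-128270305, plus strand: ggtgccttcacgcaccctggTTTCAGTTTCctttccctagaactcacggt
Ifitm3, chr7:141010696-141010762, minus strand: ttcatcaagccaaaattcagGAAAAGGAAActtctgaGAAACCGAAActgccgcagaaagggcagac
Isg15 had 3 overlapping matches, Ifit1, Ifit3 and Ifitm3 had 2 each, and the others shown had 1. In the step from etoposide to KU55933 and etoposide, 5 of the 12 genes with a match were higher by at least 1.5-fold, as were 7 of the 16 without one. The median log2 differences were 0.49 and 0.52.

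The response to DNA damage was read by comparing etoposide with LPS alone. Antiviral genes were more often lower than higher with etoposide, most of all Ifit3, Ifit2 and Oasl2. Of the 37 genes, 20 were lower by at least 1.5-fold (54.1%) and 2 were higher, while 20.1% of all genes were lower and 19.7% higher. At 2-fold, 9 members were lower and none higher, against 7.44% and 13.1% of all genes. The median log2 difference of the members was −0.64, beside −0.11 over all genes. Their levels summed to 136761 normalized counts with LPS and 91661 with etoposide. With library totals as the scaling, under which the median of all genes was 0.11 in place of −0.11, 13 members were lower and 4 higher, beside 11.9% and 25.3% of all genes. None of the 22 calls changed direction under any scaling tried, and Trim25 and Bst2, which were within 1.5-fold, changed sign.

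The addition of the ATM inhibitor was examined by comparing KU55933 and etoposide with etoposide alone. Without an arm of KU55933 alone, effects of the inhibitor on damaged cells and on any LPS-treated cell cannot be told apart, nor can they from the index. Here 32 of the 37 genes lay above 0, with Ifit1, Oasl1 and Ifit3 the highest. Of the 37, 14 were higher by at least 1.5-fold (37.8%) and 1 was lower, against 7.86% and 10.9% of all genes. At 2-fold, 9 were higher and 1 lower, against 1.96% and 4.30%. The median was 0.46, beside −0.0087 over all genes, and the counts were 13 or 14 higher and 1 lower under every scaling. The comparison of KU55933 and etoposide with LPS gave a median of −0.081, beside −0.039 over all genes. There 6 members were higher and 5 lower, against 18.7% and 18.0% of all genes, and at 2-fold 2 were higher and none lower, against 10.1% and 6.85%. With library totals these became 8 higher and 2 lower, against 26.8% and 10.4% of all genes, and Nmi, Trim30a and Phf11b were no longer lower by 1.5-fold. The 3 comparisons share libraries pairwise, so that they are not independent of each other.

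**Figure D1:**
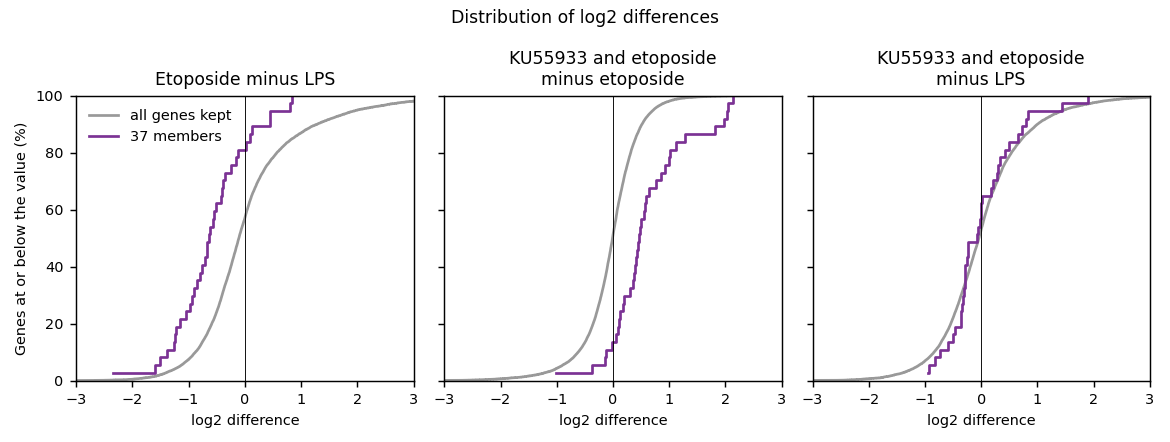
Cumulative share of genes (vertical axis, %) at or below a log2 difference (horizontal axis) for the 37 members and for all 15579 genes that passed the filter, in the 3 comparisons. The curve of the members lies left of that of all genes for etoposide minus LPS (medians −0.64 and −0.11), right of it with KU55933 (0.46 and −0.0087), and close to it for KU55933 and etoposide minus LPS (−0.081 and −0.039).

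Set by the order of the 3 levels, 18 members were lowest with etoposide and highest with LPS, and 11 were lowest with etoposide and highest with KU55933 and etoposide. These orders held for 48.6% and 29.7% of the members, and for 23.5% and 11.2% of all genes. In 10 members both steps passed 1.5-fold, lower with etoposide and higher with KU55933, as in 3.53% of all genes. Another 10 were lower with etoposide and within 1.5-fold in the KU55933 step, as were 15.9% of all genes. In 4 the step with etoposide was within 1.5-fold and that with KU55933 higher, against 3.69% of all genes. The 11 within it in both steps were 29.7% of the members, against 54.3% of all genes.

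**Figure D2:**
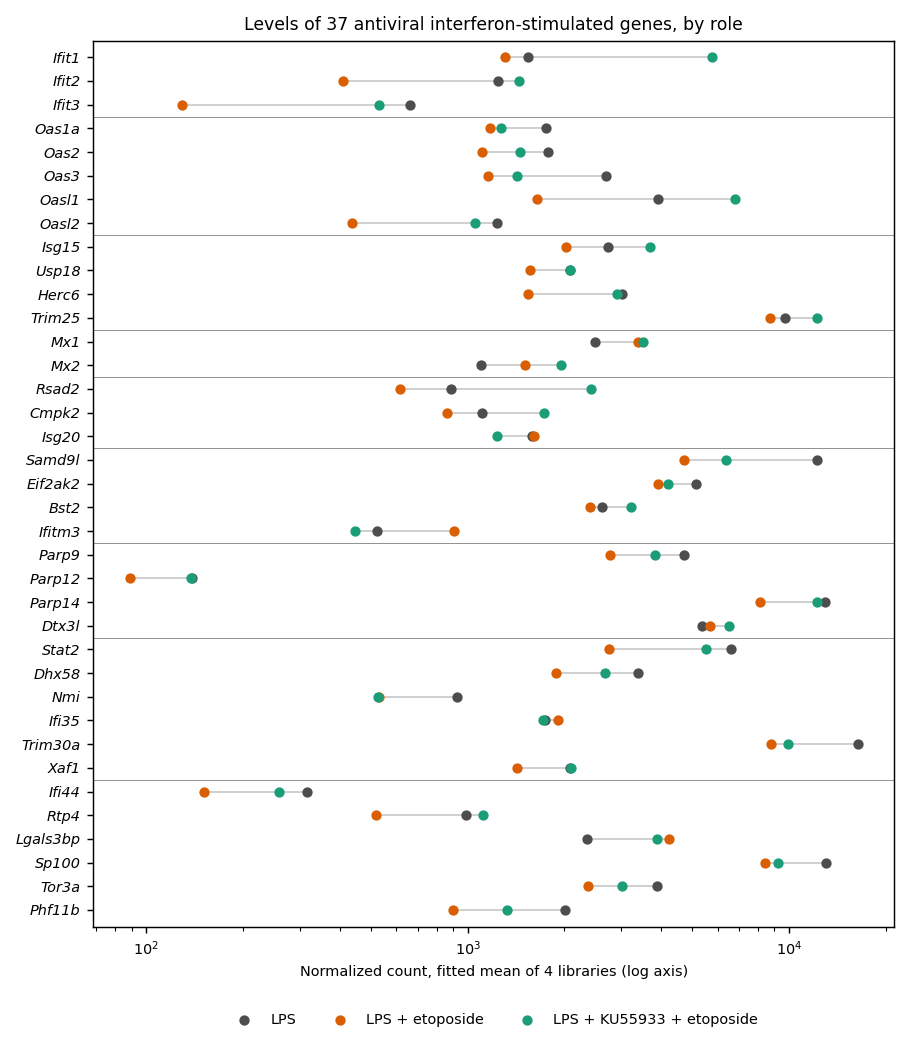
Normalized count (log axis) of each member in the 3 conditions, in blocks by role, with 1 point per condition as the mean fitted over 4 libraries and a grey line over the range. Orange points (etoposide) lie at the left end for the 18 and 11 genes lowest with etoposide, and the green points (KU55933 and etoposide) of Ifit1, Oasl1 and Rsad2 lie furthest right of both others.

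The Ifit genes encode proteins that bind viral RNA through tetratricopeptide repeats. They lie in 1 cluster on chromosome 19, with Ifit2 (34550694 to 34576419, GRCm38) 7.11 kb from Ifit3 (34583531 to 34588731). Ifit1 (34640871 to 34650009) lies a further 52.1 kb along. Ifit3b (34607970 to 34613401), which is not a member, lies between Ifit3 and Ifit1. The deposited values of Ifit1 (ENSMUSG00000034459) ranged from 1218 to 1405 with LPS, from 1298 to 1762 with etoposide and from 5235 to 6429 with KU55933 and etoposide. These ranges come from library size alone, and the scaled levels were 1545, 1303 and 5745. Ifit1 thus differed little between LPS and etoposide (log2 difference −0.25, interval −0.30 to −0.19) and was 4.41-fold higher when KU55933 was added (2.14, interval 2.10 to 2.18).

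Ifit3 (ENSMUSG00000074896), whose near copy Ifit3b may share its reads, was 661 under LPS, 129 under etoposide and 532 under KU55933 and etoposide. It had the lowest difference of all members with etoposide, −2.35 (interval −2.49 to −2.22), and was 4.09-fold higher with KU55933 (2.03, interval 1.91 to 2.17), a level still under that of LPS. Ifit2 was 1242, 410 and 1442 in the same order, with differences of −1.60 (interval −1.68 to −1.52) and then 1.81 (interval 1.74 to 1.89). All 3 genes were higher with KU55933, while Ifit1 alone of them was within 1.5-fold with etoposide.

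The oligoadenylate synthetases make the second messenger that activates RNase L, and Oasl1 and Oasl2 encode relatives of them. Oasl1 and Oasl2 lie 11.0 kb apart on chromosome 5. Oasl1, known to limit translation of Irf7 mRNA, was 3909.9 under LPS, 1643 under etoposide and 6770.05 under KU55933 and etoposide, a log2 difference of −1.25 (interval −1.29 to −1.21) and then 2.04 (interval 2.01 to 2.08). Oasl2 was 1237, 436 and 1056, a difference of −1.50 (interval −1.58 to −1.43) and then 1.28 (interval 1.2 to 1.35). Both were thus lower and then higher by more than 2-fold.

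The 3 Oas genes, in another cluster of chromosome 5, had log2 differences from −0.57 to −1.23 with etoposide. Oas2 and Oas3 were lower by 1.5-fold, and Oas1a was within it. None was higher by 1.5-fold when KU55933 was added. Oas3 was 2699.9, 1154 and 1425, with differences of −1.23 (interval −1.28 to −1.18) and 0.30 (interval 0.25 to 0.36). Oas2, 3.24 kb from Oas3, was 1778, 1111 and 1458, and Oas1a was 1747, 1175 and 1272. Oas2 was no longer lower by 1.5-fold with library totals (−0.46). Oas1a has close relatives in the genome, and reads that fit several of them could be split or lost in counting.

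Isg15 encodes the ubiquitin-like protein that is joined to others during the response. Per kb of exon it was the highest member under etoposide, at 2683 counts per kb, and under KU55933 and etoposide, at 4879, with Trim30a highest under LPS at 3985. Its normalized count was 2739.7 under LPS, 2029 under etoposide and 3689 when KU55933 preceded it, and it was 1.82-fold higher with KU55933. Herc6, an E3 ligase for ISG15 in the mouse, was 3029.7, 1544 and 2921, with differences of −0.97 and 0.92. Usp18, which removes ISG15 and restrains the type I receptor, was 2077, 1567 and 2084, within 1.5-fold in both steps. Trim25, a ubiquitin ligase of the RIG-I pathway, was 9707, 8737 and 12183 and also stayed within it, with differences of −0.15 (interval −0.17 to −0.13) and 0.48 (interval 0.46 to 0.50).

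Rsad2 encodes viperin, which makes a chain-terminating nucleotide, and Cmpk2, 12.8 kb away on chromosome 12 and read in the opposite direction, encodes a nucleotide kinase that feeds it. Rsad2 was 886, 616 and 2412, with log2 differences of −0.52 (interval −0.60 to −0.45) and 1.97 (interval 1.91 to 2.03). Cmpk2 was 1105, 862 and 1732, with differences of −0.36 (interval −0.42 to −0.29) and 1.01 (interval 0.95 to 1.06). Both were within 1.5-fold with etoposide and highest with KU55933 and etoposide, above LPS by 1.44 and 0.65 on the log2 scale. Isg20, an RNA exonuclease, did not follow them and was 1591, 1607 and 1233.

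The transcription factor Stat2, part of the complex named above, was 6587 under LPS, 2758 under etoposide and 5525 under KU55933 and etoposide. It was lower by 1.26 on the log2 scale (interval −1.29 to −1.22) and then higher by 1.00 (interval 0.97 to 1.03). Dhx58, the RIG-I relative LGP2, was 3396, 1882 and 2671, a difference of −0.85 and then 0.50. Nmi and Ifi35 encode a pair of proteins that bind each other, yet Nmi was 923, 531 and 525 while Ifi35 was 1736, 1904 and 1720.06. Trim30a, an inhibitor of TLR signalling to NF-kB, was the member with the highest count under LPS, at 16383, and was 8755 and 9891 in the other conditions, with differences of −0.90 (interval −0.92 to −0.89) and 0.18 (interval 0.16 to 0.20). Its relatives lie beside it in the genome and may share its reads. Xaf1, a pro-apoptotic gene, was 2085, 1421 and 2102, within 1.5-fold in each comparison.

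Samd9l, a restriction factor for poxviruses, was 12224 under LPS, 4699 under etoposide and 6374 under KU55933 and etoposide. Its difference of −1.38 (interval −1.40 to −1.36) was followed by one of 0.44 (interval 0.41 to 0.47), so that it remained lower than with LPS by 0.94. Eif2ak2, the kinase PKR that stops translation on sensing double-stranded RNA, was 5124, 3919 and 4187. Bst2, tetherin, was 2622, 2399.6 and 3223, and neither passed 1.5-fold.

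Ifitm3, which blocks fusion of viruses in endosomes, ran against most members in both steps. It was 522 under LPS, 907 under etoposide and 446 under KU55933 and etoposide, and it alone was higher and then lower past 1.5-fold, by 0.80 (interval 0.72 to 0.88) and −1.02 (interval −1.10 to −0.94). That pattern held for 8.02% of all genes. Lgals3bp, a secreted glycoprotein, was the other member higher with etoposide, at 2347, 4216 and 3887, and it did not go back with KU55933 (−0.12). The Mx GTPases, which trap viral nucleoproteins and are disrupted in most inbred mouse strains, were not lower with etoposide either. Mx1 was 2488, 3389 and 3510.4, and Mx2 was 1100.0, 1508 and 1957. With library totals both were higher than with LPS by 0.66 and 0.67, past 1.5-fold.

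Parp9 and Dtx3l encode partners in an ADP-ribosylation and ubiquitin complex and share a promoter region on chromosome 16. The genes overlap there by 458 exonic bases on opposite strands, so reads of the shared stretch can be told apart only where strand was used in counting, which the sources used here do not state. Parp9 was 4705, 2779 and 3831, a difference of −0.76 with etoposide, while Dtx3l was 5349.7, 5686 and 6508, a difference of 0.088. Parp14, 55.0 kb from Dtx3l, was 12898, 8103 and 12194, with a difference of −0.67 (interval −0.69 to −0.65) with etoposide. Its difference of 0.59 (interval 0.57 to 0.61) with KU55933 lies at the limit of 1.5-fold and fell under it with TMM factors (0.55) or when any 1 of the libraries with LPS and etoposide was left out (0.58). Parp12, the member with the lowest count, was 139, 88.8 and 138, with an interval from −0.84 to −0.45 for etoposide against LPS.

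The remaining 5 members were lower by 1.5-fold with etoposide. Rtp4, a chaperone of membrane receptors, was 988, 517 and 1119, with differences of −0.93 (interval −1.01 to −0.86) and 1.11 (interval 1.04 to 1.19). Ifi44 was 316, 152 and 259, a difference of −1.05 (interval −1.2 to −0.92) and then 0.77 (interval 0.63 to 0.91). Phf11b, in a family of near copies on chromosome 14 whose reads may be shared, was 2002, 903 and 1328, a difference of −1.15 (interval −1.21 to −1.09) and then 0.56 (interval 0.50 to 0.62). Sp100, a scaffold of nuclear bodies, was 12982, 8446 and 9224, with differences of −0.62 (interval −0.64 to −0.60) and 0.13 (interval 0.11 to 0.15). Tor3a was 3890.4, 2375 and 3022. With library totals the difference with etoposide came to less than 1.5-fold for Sp100 (−0.40) and Tor3a (−0.49), and likewise for Nmi (−0.58), Parp9 (−0.54), Parp14 (−0.45) and Parp12 (−0.42).

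**Figure D3:**
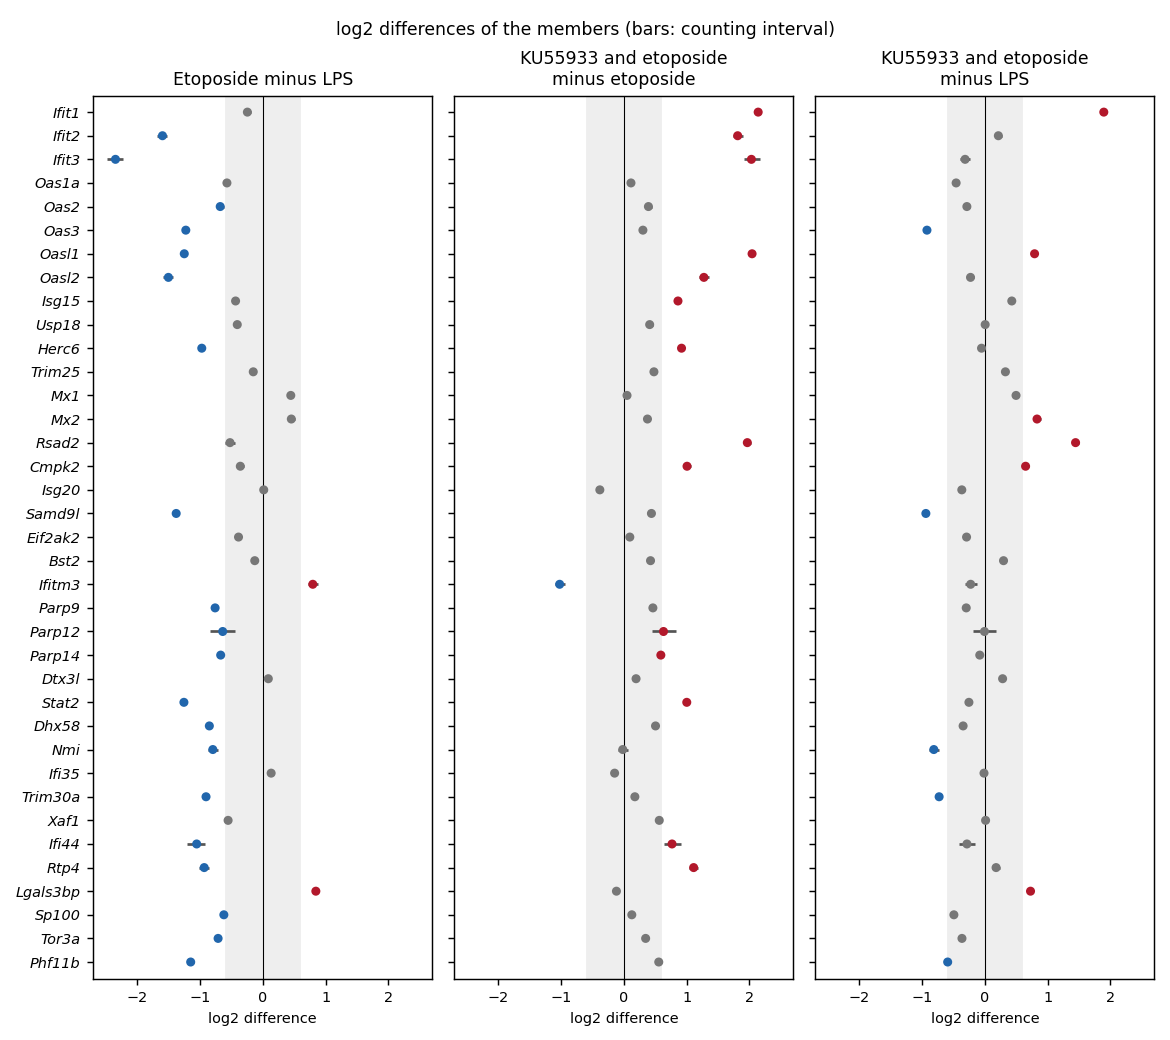
log2 differences (horizontal axis) of the 37 members in the 3 comparisons, with horizontal bars for the 95% counting interval, and grey shading for less than 1.5-fold. Blue points are lower and red points higher by at least 1.5-fold: 20 and 2 for etoposide minus LPS, 1 and 14 with KU55933 under etoposide, and 5 and 6 for KU55933 and etoposide minus LPS.

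By role, the sets were small, the Ifit genes lie in 1 cluster, and Rsad2 and Cmpk2 are neighbours, so that sets are not independent loci. Over all genes, 7.86% were higher in the KU55933 step. That step was widest for the Ifit genes (median log2 difference 2.03, 3 of 3 higher) and the nucleotide and RNA enzymes (1.01, 2 of 3, Rsad2 and Cmpk2). It was 0.39 in the Oas and Oasl genes (2 of 5), 0.67 for ISG15 and its conjugation (2 of 4), 0.53 for the ADP-ribosylation genes (2 of 4), 0.34 for signalling genes (1 of 6), 0.45 for the other interferon-stimulated genes (2 of 6), 0.26 for restriction and translation control (0 of 4) and 0.21 for the Mx genes (0 of 2). Against LPS, the level with KU55933 and etoposide was higher for Ifit1 (1.89), Rsad2 (1.44), Mx2 (0.83), Oasl1 (0.79), Lgals3bp (0.73) and Cmpk2 (0.65). It was lower for Samd9l (−0.94), Oas3 (−0.92), Nmi (−0.81), Trim30a (−0.73) and Phf11b (−0.59).

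The genes that carry the interferon signal were taken as a list of 36 ligands, receptors, kinases, transcription factors and inhibitors, of which 32 were in the table and 17 passed the filter. With etoposide, 1 of the 17 was higher by 1.5-fold (5.88%) and 3 were lower (17.6%), against 19.7% and 20.1% of all genes. With KU55933 under etoposide, 3 were higher (17.6%) and 1 lower (5.88%), against 7.86% and 10.9%. The 3 were Ifna4, Jak2 and Socs3. Of these, Ifna4 passed the filter only through its level with KU55933 and etoposide, so the filter itself favoured its call. The share of 17.6% includes Ifna4 and is raised by it, while Jak2 and Socs3 passed the filter in every condition. The ligands were at or near 0, and Ifna4 was the ligand that passed the filter, a choice that by itself favours a difference. It was 2.15 under LPS, 2.74 under etoposide and 16.9 under KU55933 and etoposide (log2 difference 2.26, interval 1.78 to 3.69). Ifnb1 did not pass, at 1.2, 1.96 and 5.76 (interval of the KU55933 step 0.39 to 2.83). Ifng was at most 0.340.

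The receptor chain Ifnar1 was 3309, 2833 and 3951, and Ifnar2 was 1116, 826 and 899. Of the kinases, Jak1 was 12329 under LPS, 4905 under etoposide and 4628 under KU55933 and etoposide, 1.33 lower with etoposide on the log2 scale, while Tyk2 was 2034, 1871 and 2085. Jak2, used by the interferon-γ receptor, was 2034, 1775 and 3344, 0.91 higher with KU55933. Irf9 was 3977, 4413 and 5183.

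Among the inhibitors, Socs1 was 64.7, 223 and 252, 1.77 higher with etoposide, and Socs3 was 960, 880 and 1857, 1.08 higher with KU55933. Ptpn6, the phosphatase SHP-1, was 11020, 4000.4 and 2635, and Pias1, a SUMO ligase that restrains STAT signalling, was 1865, 1186 and 927. Both were lower with etoposide, by 1.46 and 0.65 on the log2 scale, and Ptpn6 was lower again with KU55933 (−0.60).

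**Figure D4:**
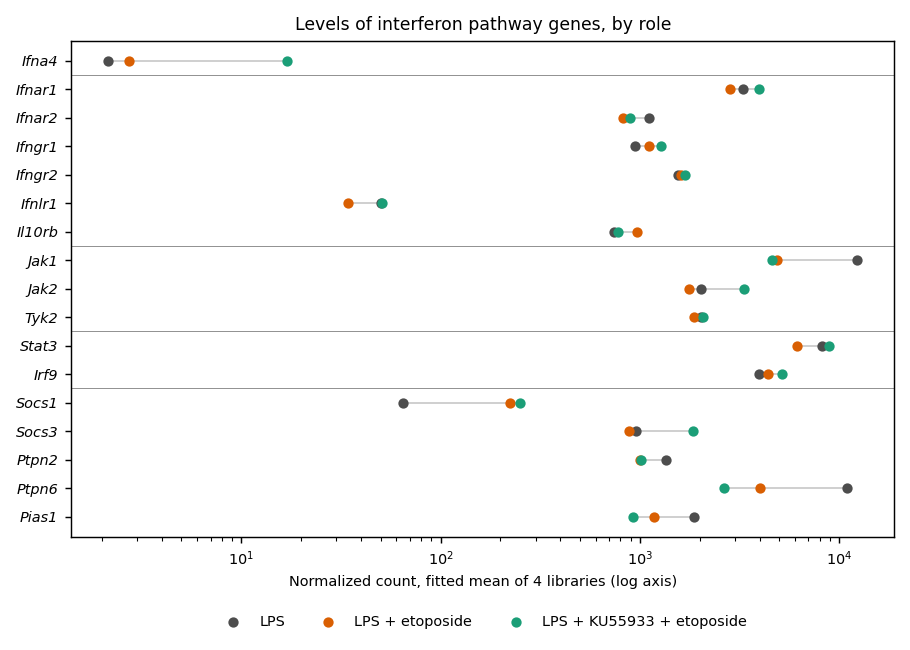
Normalized count (log axis) of the 17 interferon pathway genes that passed the filter, in blocks of ligand, receptors, kinases, transcription factors and inhibitors, with 1 point per condition as the mean fitted over 4 libraries. Ifna4 lies at 16.9 with KU55933 and etoposide against 2.15 and 2.74 in the other conditions, and Jak1 and Ptpn6 are highest with LPS.

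Other cells of the spleen also express these genes, and in bulk RNA fewer cells of a type and less RNA per cell cannot be told apart. The B cell markers were lower with etoposide as well, in 9 of 10 by at least 1.5-fold, with Cd22 going from 25005 to 4172 and Pax5 from 5749 to 1095. The summed macrophage and monocyte markers, 8 of 10 past the filter, went from 12152 with LPS to 9968 with etoposide and 9399.6 with KU55933 and etoposide, most of it Ctss and Mpeg1. Single markers went both ways, with Itgam lower with etoposide by 1.5-fold, and Cd14 (5.37, 23.6 and 40.4), Cd68 (108, 206 and 174) and Csf1r (4.33, 10.1 and 9.67) higher. The summed dendritic cell markers, 4 of 7 past the filter, were 3169, 1950.07 and 3488 and thus lowest with etoposide. Of this sum Flt3 made up 2906, 1612 and 2930 counts, and the defining markers Siglech and Clec9a were below 1 in every condition. Zbtb46 (107, 177 and 405) and Xcr1 (42.8, 68.1 and 45.0) were higher with etoposide by 1.5-fold. Of 5 plasmablast markers, only Sdc1, at 144, 1906 and 634, was higher and then lower past 1.5-fold as Ifitm3 was. With etoposide Xbp1 was lower by 1.5-fold (−0.61), and Prdm1 (−0.55), Mzb1 (−0.075) and Jchain (0.30) were within it. The sum of the 5 was 26702, 25299 and 20300.0. The part of these cell types in the differences of the antiviral genes was not tested.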

How the data were processed

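Libraries of polyA RNA from 12 cultures were sequenced, 4 per condition, and grouped by their sample titles. Per the labels and the study's methods, the authors trimmed the reads with Trim Galore and cutadapt 1.2.1, mapped them to GRCm38 with TopHat2 2.0.12, used HTSeq to count reads over the genes of Ensembl 78, and fitted DESeq2 1.6.3. Whether the fitted means were moderated is not given in the sources used here. The deposited table holds a signal per gene and library, the normalized count, found to be the fitted mean of a condition times a factor per library. The 3 deposited tables of the authors' own comparisons (means, fold changes, errors, p-values) were not used.

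Factors per library were the medians of ratios to the geometric mean over all 29486 genes, and ranged from 0.788 to 1.35. Levels are the column values divided by them. The design had provided for limma, which needs a spread between replicates and could not be run. Intervals are exact binomial intervals at the 95% level on rounded sums of the fitted values. Exonic lengths and positions are from GENCODE M21, and promoter sequences from RefSeq. The functions were tested on simulated data with known factors. Members, gene lists, filters and tests were chosen with earlier results of these data known. All 37 members are named with their levels, with both differences and intervals for those past 2-fold in a step with etoposide or KU55933 and for the 5 highest in level; other values were added after they were seen. Alternatives were TMM factors, library totals and quantile normalization, a pseudocount of 0.5 or 5, a minimum of 50 or no filter, a 2-fold limit, leaving out each library, and medians of ratios over genes with a mean of 100, the last chosen after seeing the data. Python 3.11.15 was used with scipy 1.17.1, numpy 2.4.6, matplotlib 3.10.9 and pandas 2.3.3. A gene of the interferon pathway list is not reported here.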

Additional observations from a re-analysis of the deposited data

How the results depend on the processing

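The comparison of KU55933 and etoposide with etoposide kept a median between 0.42 and 0.53, and 13 or 14 members higher, under every scaling, pseudocount and filter tried. At 2-fold, 9 were higher. For etoposide against LPS, library totals gave 13 members lower, 4 higher and a median of −0.42. Quantile normalization gave a median of −0.42. Medians of ratios over genes with a mean of 100 gave 4 members higher and a median of −0.47, beside 0.068 over all genes. There 24.1% of all genes were higher and 13.5% lower. Under that scaling 5 calls of the members were lost, 2 were gained and none was reversed. At 2-fold, with the scaling as reported, 9 members were lower and 0 higher. For KU55933 and etoposide against LPS the sign of the median depended on the scaling. It was 0.15 with library totals (2 lower, against 10.4% of all genes), beside 0.20 over all genes. It was 0.048 with medians of ratios over genes with a mean of 100, beside 0.092. With quantile normalization it was 0.13 (10 higher, 2 lower), beside −0.013 over all genes. There 17.1% of all genes were higher and 17.0% lower. Relative to the median of all genes it was −0.042 as reported and −0.044 with library totals. It was −0.043 with the genes of a mean of 100 and 0.15 with quantile normalization. At 2-fold, with the scaling as reported, 2 members were higher and 0 lower. Relative to the median of all genes, the members' median for etoposide against LPS was −0.53 as reported, −0.54 with library totals and −0.33 with quantile normalization. No single gene's call changed direction under any alternative. Leaving out each library moved only the factors, since the columns of a condition are proportional. The members higher with KU55933 under etoposide then numbered 13 to 14, and those with a level between LPS and etoposide 19 to 21. No paired analysis was possible because the deposited values hold no spread between replicates and no test was made. Counting intervals held 0 for Isg20 with etoposide for Nmi with KU55933 under etoposide, and for Usp18, Parp12, Ifi35 and Xaf1 with KU55933 and etoposide against LPS, and depth limited Parp12 most.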

Other observations

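Relatives of the members outside the list, chosen by symbol after the results were seen, add to the description. Ifit3b, a near copy of Ifit3 with which it may share reads, had 279 normalized counts under LPS, 49.3 under etoposide and 214 when KU55933 preceded it, log2 differences of −2.48 and 2.10. Trim30c was 199.5, 45.5 and 129.8, and Trim30b was 1797, 738 and 1193. Within the Oas1 family, Oas1g was 441, 279 and 312, while Oas1b was 860.15, 1442 and 1539, 0.74 higher with etoposide. Oas1f (1.57, 17.5 and 8.07) and Oas1e (4.01, 15.0 and 9.51) were also higher with etoposide. Both reached 10 counts only there, a choice that by itself favours a difference. Oas1c (427, 402 and 437) was within 1.5-fold. Parp10 was 1933, 6425 and 4413, which is 1.73 higher with etoposide and then 0.54 lower, against the direction of Parp9 and Parp14. In the Phf11 family, Phf11a was 670.2, 267 and 324.5, and Phf11c was 717, 1075 and 962. Of the relatives of Ifitm3, Ifitm2 was 614, 437 and 455, within 1.5-fold in both steps. Ifitm1 was 28.3, 30.2 and 51.2, 0.74 higher with KU55933. Ifitm5, near the filter limit at 7.91, 13.5 and 13.3, was 0.70 higher with etoposide. Herc3, Cmpk1, Isg20l2, Parp11, Ifi27, Ifi27l2a and Phf11d were within 1.5-fold in both steps, and not every relative is given.

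Across the 37 members, Spearman's rho between the genomic span of a gene and its log2 difference with etoposide was −0.39, and it was −0.057 over the 15500 kept genes with an annotated span. In the KU55933 step rho was 0.048 for the members and −0.061 over all genes. For KU55933 and etoposide against LPS it was −0.29 and −0.081. The members spanned 1.19 to 93.9 kb. Neighbouring members share clusters, and all values come from the same libraries.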
